A study of Homo sapiens with 66 samples.

Results

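Adhesion proteins of the synapse are encoded by the genes followed here, the neurexin genes NRXN2 and NRXN3, the neuroligin genes NLGN1, NLGN2 and NLGN3, and the LRRTM genes LRRTM1, LRRTM2, LRRTM3 and LRRTM4, from human pluripotent cells to spinal motor neuron cultures. They were chosen by name, as 9 of the 60603 genes in the count tables, and all 9 were found by their Ensembl identifiers. RNA of H9 cells, 1 wild-type human embryonic stem cell line, was sequenced in bulk in 66 libraries, with 3 libraries in each of 22 groups. Undifferentiated cells in mTeSR medium (hESC) were followed by 4 daily groups of human neuromesodermal progenitors (hNMP-D1 to hNMP-D4). Per the paper, seeded cells reached day 4 after 1 day in mTeSR and 3 days with FGF2, the GSK3 inhibitor CHIR99021, SB431542 and Dorsomorphin. By that count hNMP-D1 may have been taken before these factors were added. The next 6 groups (NeuDet-D1 to NeuDet-D6) cover daily steps of neural determination, in which FGF8 and the gamma-secretase inhibitor Compound E were added. Human spinal cord neural progenitor cells (hSCNPC), kept in SB431542, CHIR99021 and Purmorphamine, were sampled at passages 5, 10, 20, 30 and 40. Motor neuron cultures (hMN), which received Purmorphamine, Compound E, BDNF, GDNF and NT-3, were sampled at days 6, 12, 18, 24, 30 and 42. The labels mark no library as the starting point (day 0) of the motor neuron course, and hSCNPC-P10 stands in for it. It comes from the other of the 2 count tables, and for hMN-D6 against hSCNPC-P10 the table and the stage cannot be told apart.

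Synapses form where an axon terminal meets its target, and proteins that span the cleft hold both sides together and help to recruit the release and receptor machinery. Neurexins sit mainly on the presynaptic side. Neuroligins and LRRTM proteins sit on the postsynaptic side and bind neurexins across the cleft. NLGN1 is known from excitatory synapses and NLGN2 from inhibitory ones, while NLGN3 is found at both, and the LRRTM proteins, which carry leucine-rich repeats, act at excitatory synapses. Neurexin genes give rise to long alpha and shorter beta forms from separate promoters, which counts per gene add together.

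Total counts per library ran from 14142238 to 40204753 (median 20676228). Levels are CPM, the counts scaled to library size, after TMM scaling over all 66 libraries, given as the mean ± SD of 3 libraries. Differences are log2 fold changes with their standard error (SE) from edgeR's quasi-likelihood test, with p-values adjusted by the Benjamini-Hochberg method over all genes tested, and a gene was called at an adjusted p under 0.05. The labels do not say whether libraries sharing a group name were grown as separate cultures, and the p-values therefore measure only the spread between libraries, which may be technical. In a bulk library, fewer cells of a type and less RNA per cell cannot be told apart. All 11 pan-neuronal genes and all 7 motor neuron genes examined were at 1 CPM or more in each hMN group. The 11 pan-neuronal genes were also at 1 CPM or more in hSCNPC-P5 and hSCNPC-P10. The summed level of the pan-neuronal genes was 10330 to 13650 CPM in the 18 hMN libraries and 192 to 2236 CPM in the 48 others, and that of the motor neuron genes 63.1 to 118 CPM against 1.56 to 10.1 CPM. The 6 pluripotency genes examined were all at 1 CPM or more in hESC, with a summed level of 3493 to 3594 CPM. They were also all at 1 CPM or more in each hNMP group and in NeuDet-D1, with 4056 to 4120 CPM in sum at hNMP-D1.

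All 9 genes had reads in every group, and 8 of them were highest in an hMN group between day 6 and day 24. LRRTM1 was the exception, with its highest mean at day 42. For NRXN2, NRXN3, NLGN3, LRRTM2, LRRTM3 and LRRTM4, all 18 hMN libraries lay above all 48 others. That is 6 of 9 genes, beside 11.6% of the 20037 genes with at least 1 CPM in 3 libraries. The span between the lowest and the highest group mean was 6.12-fold for NLGN1, 8.82-fold for NLGN2, 19.5-fold for LRRTM4, 28.5-fold for NLGN3, 32.2-fold for NRXN3 and 224-fold for NRXN2. It was widest for LRRTM1, LRRTM3 and LRRTM2, at 291-, 406- and 516-fold, but the lowest groups of these 3 genes rest on 1 to 5 reads per library. In the order of the group means, neighbouring groups overlapped in 16 of 21 places for NLGN1 and in 8 of 21 for NRXN3.

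**Figure D1:**
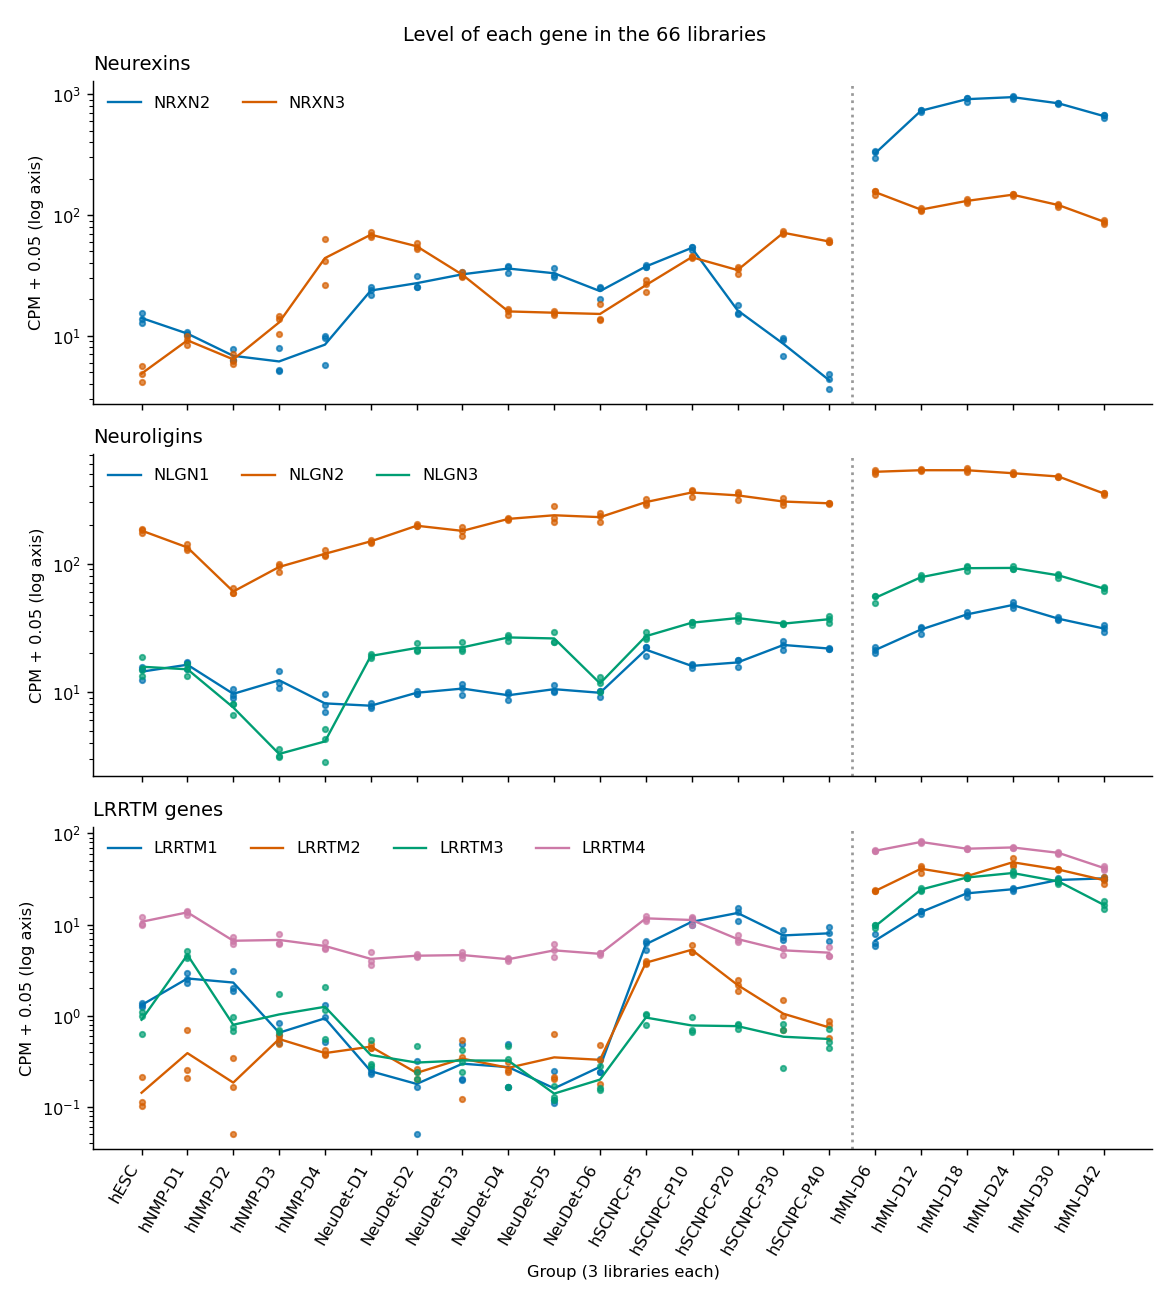
Level of each gene in all 66 libraries, in CPM plus 0.05 on a log axis, for the neurexins, neuroligins and LRRTM genes. Points are libraries, lines join the means of the 22 groups, and the dotted line parts the 2 count tables. In NRXN2, NRXN3, NLGN3, LRRTM2, LRRTM3 and LRRTM4 every hMN library lies above every other library.

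In all, 9 comparisons between stages were tested, and all 9 genes passed the filter on low counts in each. Between hESC and hNMP-D4, 2 of the genes rose, 5 fell and the other 2 were not called, beside 26.7% higher and 27.6% lower among all genes tested. From hNMP-D4 to NeuDet-D6, 3 rose and 4 fell (all genes: 30.3% higher, 34.8% lower). From NeuDet-D6 to hSCNPC-P5 all 9 rose and 0 fell, beside 28.8% higher and 30.6% lower among all genes, with a median log2 fold change of 1.24 for the 9 genes and -0.02 for all genes. At the same step 9 of 11 pan-neuronal genes rose and 1 fell (median 1.61), and their summed level went from 461.5 to 557 CPM to 1136 to 1176 CPM. Of 9 progenitor and cycling genes 5 rose and 3 fell, with summed levels of 2834 to 2981 and 5932 to 6182 CPM, and of 8 mesenchymal and neural crest genes 0 rose and 6 fell, with 190.0 to 207 and 76.0 to 81.0 CPM. The part of these shifts in the rise of the 9 genes was not tested. Between passages 10 and 20, 0 rose and 3 fell (all genes: 10.9% higher, 14.6% lower). DESeq2 gave the same counts there, and at an unadjusted p under 0.05 edgeR had 0 higher and 4 lower. Between passages 5 and 40, 2 rose and 3 fell (22.8% higher, 24.1% lower). At the step from hSCNPC-P10 to hMN-D6, 8 rose and 1 fell, beside 38.5% higher and 36.7% lower among all genes, and the medians were 1.76 and 0.08. From hMN-D6 to hMN-D12, 7 rose and 1 fell (23.8% and 22.8% of all genes), and from hMN-D12 to hMN-D30, 5 rose and 2 fell (22.7% and 21.9%). From hMN-D30 to hMN-D42, 0 rose and 8 fell, beside 21.8% higher and 19.9% lower among all genes, with a median of -0.39 for the 9 genes.

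**Figure D2:**
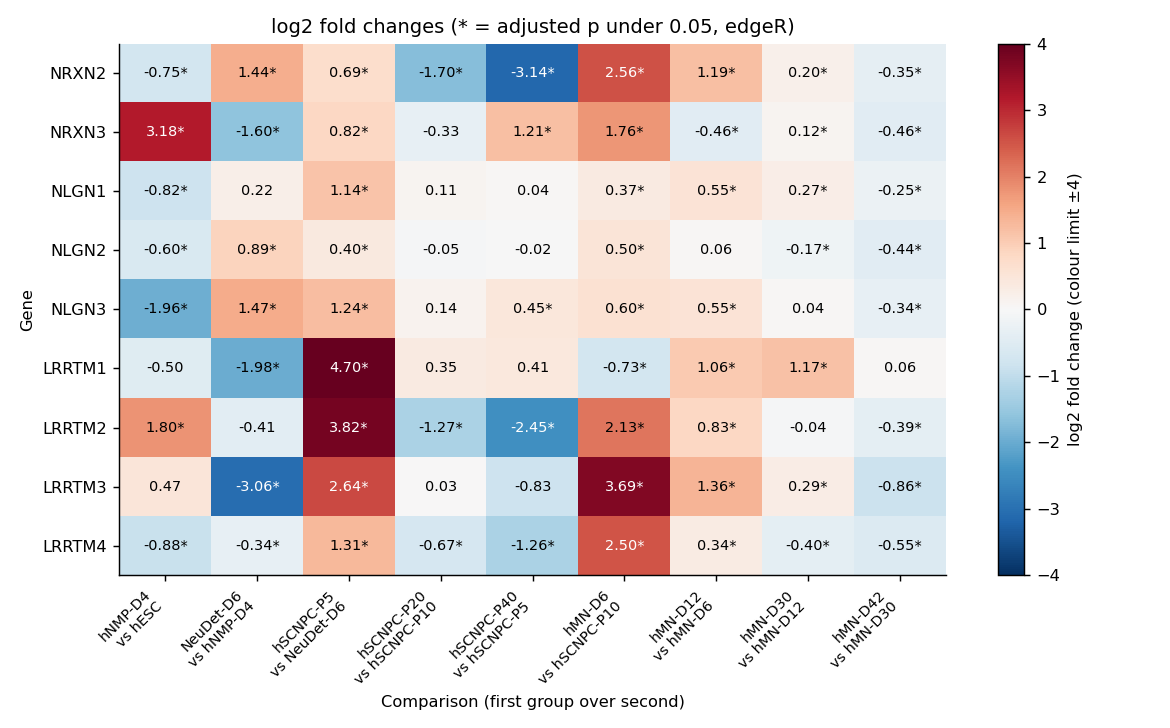
log2 fold changes of the 9 genes (rows) in the 9 comparisons (columns), first group over second, with an asterisk where edgeR's adjusted p was under 0.05. The column of hSCNPC-P5 against NeuDet-D6 is positive in all 9 genes, and the column of hMN-D42 against hMN-D30 is negative in all but LRRTM1.

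The 2 neurexin genes took different courses. NRXN2 (chromosome 11, 64606174 to 64723197, minus strand, hg38) had 15.3, 13.8 and 12.8 CPM in the 3 hESC libraries and 9.97, 9.53 and 5.67 CPM in hNMP-D4, without overlap. NRXN2 fell by 0.75 on the log2 scale (SE 0.143, edgeR, adjusted p = 1.43e-05). NRXN3 (chromosome 14, 78170373 to 79868291, plus strand) moved the other way, from 4.13, 5.56 and 4.75 CPM in hESC to 63.8, 41.95 and 26.1 CPM in hNMP-D4. Its rise was 9.08-fold (log2 fold change 3.18, SE 0.198, edgeR, adjusted p = 3.35e-16), and its hNMP-D4 libraries spread more widely than those of any other group, though all 3 stood above hESC. NRXN3 then had 68.7 ± 3.60 CPM at NeuDet-D1 and declined to 15.1 ± 2.70 CPM at NeuDet-D6, while NRXN2 went from 23.7 ± 1.97 to a high of 36.0 ± 2.79 CPM at NeuDet-D4 and 23.4 ± 2.79 CPM at NeuDet-D6. Against hNMP-D4, NeuDet-D6 had more NRXN2 (log2 fold change 1.44, SE 0.133, edgeR, adjusted p = 2.03e-13) and less NRXN3 (-1.60, SE 0.161, adjusted p = 6.21e-11).

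RefSeq (GRCh38.p14) gives NRXN3 3 promoter windows, each of 250 bases before a start and 50 after it. The first and the last are shown because the counts per gene cannot say which of the starts the reads came from. The 250 bases before each start follow, 5′ to 3′ on the plus strand, with capitals marking CAGCTG (an E-box) in the first and GGGCGG (a GC box) in the last.
NRXN3 first start, chr14:78170123-78170372: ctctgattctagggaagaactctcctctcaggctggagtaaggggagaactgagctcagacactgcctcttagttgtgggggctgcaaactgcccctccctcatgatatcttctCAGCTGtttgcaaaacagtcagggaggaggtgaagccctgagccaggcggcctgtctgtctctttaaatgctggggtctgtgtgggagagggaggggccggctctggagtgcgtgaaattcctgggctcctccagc
NRXN3 last start, chr14:79279130-79279379: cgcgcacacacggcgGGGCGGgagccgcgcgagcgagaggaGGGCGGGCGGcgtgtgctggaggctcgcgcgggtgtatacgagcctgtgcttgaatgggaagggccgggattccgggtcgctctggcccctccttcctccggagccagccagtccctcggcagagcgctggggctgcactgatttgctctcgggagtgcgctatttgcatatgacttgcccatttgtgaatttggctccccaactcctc
The windows differ in composition. The window of the first start has 5 CG dinucleotides, an observed over expected ratio of 0.21, and that of the last start has 30, a ratio of 0.89. The first holds 1 CAGCTG, 136 bases before the start, a motif found on either strand in 17.9% of the 35116 windows of all genes. The last holds GGGCGG 3 times, of which 2 overlap, and 45% of all windows hold it at least once. No promoter of NRXN2 or LRRTM4 was used here.

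Over the passages of hSCNPC the neurexins parted again. NRXN2 had 38.2, 37.3 and 36.9 CPM at passage 5, 54.7, 51.3 and 54.2 at passage 10, 18.04, 15.4 and 15.2 at passage 20, 9.54, 9.26 and 6.77 at passage 30, and 3.58, 4.77 and 4.33 at passage 40. No 2 of these 5 groups overlapped, and passage 10 was the highest. The fall was 3.25-fold between passages 10 and 20 (log2 fold change -1.70, SE 0.124, edgeR, adjusted p = 5.31e-16) and 8.83-fold between passages 5 and 40 (-3.14, SE 0.149, adjusted p = 1.91e-23). NRXN3 had 26.6, 29.0 and 23.1 CPM at passage 5 and between 59.2 and 61.8 CPM in the 3 libraries of passage 40. It was 2.32-fold higher at passage 40 (log2 fold change 1.21, SE 0.159, edgeR, adjusted p = 5.13e-08), and its difference between passages 10 and 20 was not called (-0.33, SE 0.156, adjusted p = 0.124). Over the same passages the summed pan-neuronal level was 1136 to 1176 CPM at passage 5, 2191 to 2236 at passage 10, 2181 to 2203 at passage 20 and 1935 to 2028 at passage 40. Between passages 10 and 20, where NRXN2 fell, 1 of the 11 pan-neuronal genes rose and 4 fell, and of 17 presynaptic genes 0 rose and 11 fell, with a summed level of 590 to 599 CPM at passage 10 and 398 to 407 CPM at passage 20. Of 5 tested motor neuron genes 1 rose and 3 fell, and of 8 mesenchymal and neural crest genes 1 rose and 5 fell, with summed levels of 79.6 to 106 CPM and 11.9 to 13.7 CPM. Between passages 5 and 40, 6 of the 11 pan-neuronal genes rose and 4 fell (median log2 fold change 0.35), beside 22.8% higher and 24.1% lower among all genes. Within this list RBFOX3, a marker of mature neurons, and ELAVL4 fell between those passages (log2 fold changes -6.63 and -4.22, edgeR, adjusted p = 3.37e-25 and 5.81e-17), while NEFL, a neurofilament gene, rose (1.92, adjusted p = 1.39e-34). RBFOX3 and ELAVL4 were also lower at passage 20 than at passage 10 (-3.32 and -3.34, adjusted p = 3.44e-16 and 7.53e-16). The part of a change in cell makeup in the fall of NRXN2 was not tested.

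**Figure D3:**
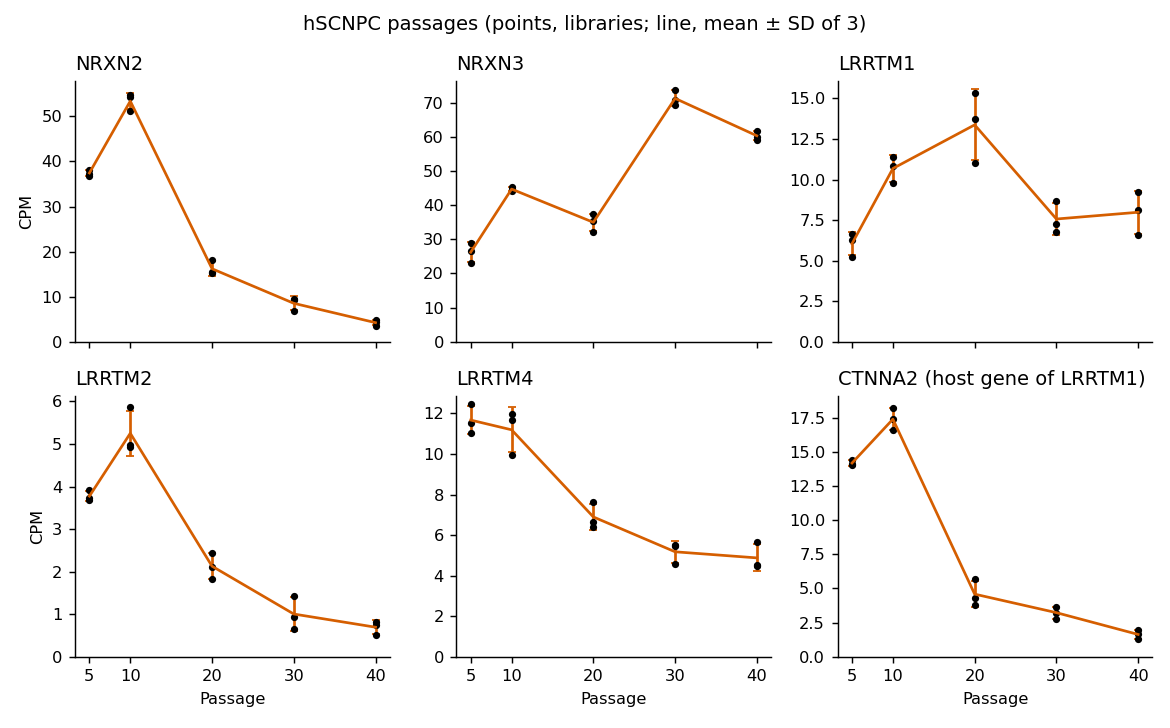
CPM of NRXN2, NRXN3, LRRTM1, LRRTM2, LRRTM4 and CTNNA2, the host gene of LRRTM1, against passage of hSCNPC. Points are libraries, and lines give the mean ± SD of 3. NRXN2 goes from 53.4 CPM at passage 10 to 4.23 CPM at passage 40, while NRXN3 is at 60.3 CPM at passage 40.

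Both neurexins rose with motor neuron differentiation. NRXN2 had 298, 342 and 332 CPM at hMN-D6 against 51.3 to 54.7 CPM in hSCNPC-P10, a 5.91-fold difference (log2 fold change 2.56, SE 0.0509, edgeR, adjusted p = 1.2e-40). It was 2.28-fold higher again at hMN-D12 (743, 708 and 741 CPM, adjusted p = 7.71e-28) and reached 974, 950 and 919 CPM at hMN-D24, whose libraries overlapped those of hMN-D18. NRXN3 had 147, 159 and 159 CPM at hMN-D6, 3.38-fold above hSCNPC-P10 (log2 fold change 1.76, SE 0.0465, edgeR, adjusted p = 2.1e-35). It was the 1 gene of the 9 that fell from hMN-D6 to hMN-D12, to 109, 109 and 115 CPM (-0.46, SE 0.0425, adjusted p = 2.5e-13), then stood at 147 ± 3.99 CPM at hMN-D24. At hMN-D42 both were lower than at hMN-D30, NRXN2 with 658 ± 20.4 against 842 ± 12.4 CPM (-0.35, SE 0.0437, adjusted p = 3.53e-09) and NRXN3 with 87.8 ± 2.98 against 121 ± 3.57 CPM (-0.46, SE 0.0431, adjusted p = 1.69e-12).

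NLGN2 (chromosome 17, 7404874 to 7419860, plus strand) was the neuroligin with the most reads in every library. It had 183, 187 and 172 CPM in hESC, 58.8, 58.5 and 64.2 CPM at hNMP-D2, its lowest group, and 119 ± 7.56 CPM at hNMP-D4. The difference between hNMP-D4 and hESC was a fall of 0.60 on the log2 scale (SE 0.0738, edgeR, adjusted p = 8.3e-10). It rose to NeuDet-D6 (230 ± 17.99 CPM, log2 fold change 0.89, SE 0.0732, adjusted p = 7.84e-16) and again to hSCNPC-P5 (301 ± 15.8 CPM, 0.40, SE 0.0718, adjusted p = 2.67e-06). Neither passage comparison was called for NLGN2, with -0.05 (SE 0.0717, adjusted p = 0.652) between passages 10 and 20 and -0.02 (SE 0.072, adjusted p = 0.831) between passages 5 and 40. At hMN-D6 it was 1.41-fold above hSCNPC-P10 (518 ± 19.7 against 358 ± 23.2 CPM, adjusted p = 2.18e-15), and hMN-D6 to hMN-D18 overlapped. By hMN-D42 it had 354, 343 and 353 CPM, within the range of hSCNPC-P10 and below hMN-D30 (log2 fold change -0.44, SE 0.0411, adjusted p = 1.22e-12).

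NLGN3 (chromosome X, 71144821 to 71175255, plus strand) had the widest range of the neuroligins. It went from 13.3, 14.9 and 18.8 CPM in hESC to 4.25, 5.14 and 2.81 CPM in hNMP-D4, a 3.89-fold fall (log2 fold change -1.96, SE 0.135, edgeR, adjusted p = 2.69e-18). On the first day of neural determination it stood at 18.2, 19.8 and 19.1 CPM, and it stayed between 18.2 and 29.3 CPM in all 15 libraries of NeuDet-D1 to NeuDet-D5. At NeuDet-D6 it was 9.95, 11.8 and 13.1 CPM, below all of these yet still above hNMP-D4 (1.47, SE 0.133, adjusted p = 2.19e-14), and it rose 2.37-fold to hSCNPC-P5 (adjusted p = 7.32e-15). It was higher at passage 40 than at passage 5 (36.8 ± 2.32 against 27.1 ± 1.75 CPM, 0.45, SE 0.104, adjusted p = 0.000291). In hMN it went from 54.0 ± 3.73 CPM at day 6 to 92.4 ± 2.099 CPM at day 24 and 63.6 ± 2.05 CPM at day 42.

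NLGN1 (chromosome 3, 173396284 to 174294372, plus strand) varied least. It had 12.3, 15.1 and 15.6 CPM in hESC and 7.82, 9.53 and 6.93 CPM in hNMP-D4 (log2 fold change -0.82, SE 0.114, edgeR, adjusted p = 1.53e-08). The groups from hNMP-D4 to NeuDet-D6 lay between 7.76 and 10.6 CPM on average, and the difference between the ends of that stretch was not called (0.22, SE 0.112, adjusted p = 0.0747). NLGN1 rose 2.20-fold to hSCNPC-P5 (adjusted p = 6.58e-14). At hMN-D6 it had 19.97, 21.2 and 22.2 CPM, above the 15.2 to 16.4 CPM of hSCNPC-P10 (0.37, SE 0.07, adjusted p = 5.6e-06). These values lay inside the 19.2 to 22.4 CPM of hSCNPC-P5 and overlapped those of passages 30 and 40. With hSCNPC-P5 in place of hSCNPC-P10 the difference was -0.05 (adjusted p = 0.546). NLGN1 rose to 30.6 ± 2.17 CPM at hMN-D12 (0.55, SE 0.0632, adjusted p = 1.99e-10) and had its highest mean, 47.5 ± 2.23 CPM, at hMN-D24.

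Of the LRRTM genes, LRRTM1, LRRTM2 and LRRTM3 each lie inside a larger alpha-catenin gene: LRRTM1 (chromosome 2, 80288351 to 80304752, minus strand) in CTNNA2, LRRTM2 (chromosome 5, 138868921 to 138875368, minus strand) in CTNNA1, and LRRTM3 (chromosome 10, 66926036 to 67101551, plus strand) in CTNNA3, each on the opposite strand. LRRTM4 (chromosome 2, 76747685 to 77593319, minus strand) does not. In the 18 NeuDet libraries LRRTM1 had 0 to 16 reads, LRRTM2 2 to 17 and LRRTM3 2 to 15, none above 0.588 CPM, while LRRTM4 had 108 to 198 reads, 3.58 to 6.02 CPM. At hSCNPC-P5 the 4 genes had risen. LRRTM1 went from 7, 11 and 5 reads in NeuDet-D6 (0.195, 0.287 and 0.195 CPM) to 106, 91 and 126 reads (6.27, 5.23 and 6.64 CPM), 26.0-fold (log2 fold change 4.70, SE 0.315, edgeR, adjusted p = 8.73e-19). LRRTM2 went from 10, 5 and 11 reads to 63, 68 and 70, 14.1-fold (3.82, SE 0.363, adjusted p = 1.78e-13), LRRTM3 from 4, 4 and 6 reads to 17, 17 and 14, 6.23-fold (2.64, SE 0.49, adjusted p = 5.92e-06), and LRRTM4 from 4.73 ± 0.11 to 11.7 ± 0.71 CPM, 2.48-fold (1.31, SE 0.125, adjusted p = 1.87e-13). No library of one group reached those of the other in any of the 4.

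Before that point LRRTM1, LRRTM2 and LRRTM3 were low, with brief rises of LRRTM3 and LRRTM1 at hNMP-D1. LRRTM3 had 19, 11 and 15 reads in hESC, 87, 94 and 80 reads at hNMP-D1 (4.47, 5.14 and 4.22 CPM) and 22, 12 and 11 reads at hNMP-D2. All 3 hNMP-D1 libraries stood above every other library outside hMN, a pair of groups for which no test was planned. LRRTM4 too had its highest mean outside hMN at hNMP-D1 (13.6 CPM, against 10.7 in hESC and 6.60 at hNMP-D2). The means of LRRTM1 were 1.26 CPM in hESC, 2.52 at hNMP-D1 and 2.27 at hNMP-D2, and these steps were not tested either. Between hNMP-D4 and NeuDet-D6 LRRTM3 fell 8.36-fold (adjusted p = 7.15e-08) and LRRTM1 3.96-fold (adjusted p = 2.91e-05). LRRTM4 was lower in hNMP-D4 than in hESC (5.78 ± 0.59 against 10.7 ± 1.29 CPM, log2 fold change -0.88, SE 0.129, adjusted p = 5.44e-08). LRRTM2 was called higher in hNMP-D4 than in hESC (1.80, SE 0.712, edgeR, adjusted p = 0.0289) on 7, 6 and 8 reads against 3, 1 and 1. That call was lost without hESC replicate 2 (adjusted p = 0.102), hESC replicate 3 (0.0745) or hNMP-D4 replicate 3 (0.0526).

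The RefSeq promoter of LRRTM2 is shown because this gene had the widest range of the 9, on few reads at its lowest, and its window alone among those of the 7 genes with one holds TGACGTCA, the cyclic AMP response element (CRE). The 250 bases before the start, 5′ to 3′ on the minus strand of GRCh38.p14, follow. Capitals mark the CRE and, upstream of it, a match on the opposite strand to the TATA box motif, TATAAA.
LRRTM2, chr5:138875336-138875585: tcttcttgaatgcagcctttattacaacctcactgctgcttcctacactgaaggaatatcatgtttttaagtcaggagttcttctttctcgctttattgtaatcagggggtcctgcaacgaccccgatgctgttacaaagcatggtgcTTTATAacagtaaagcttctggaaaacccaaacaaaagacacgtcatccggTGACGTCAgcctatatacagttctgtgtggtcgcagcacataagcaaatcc
The CRE lies 51 to 44 bases before the start, and it is found in 1.85% of the 35116 windows of all genes, while TATAAA on either strand is found in 11.5%. A match of letters says nothing of whether a factor binds there in these cells.

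Between passages 5 and 40 LRRTM2 and LRRTM4 fell, while LRRTM1 was highest in the middle of the course. LRRTM2 was highest at passage 10 (5.25 CPM on average, without overlap with passage 5), a rise that was not tested. LRRTM2 had 3.73, 3.91 and 3.69 CPM at passage 5 and 0.827, 0.739 and 0.52 CPM at passage 40, a 5.46-fold fall (log2 fold change -2.45, SE 0.346, edgeR, adjusted p = 3.11e-08). LRRTM4 had 11.5, 11.0 and 12.4 CPM at passage 5 and 4.52, 5.65 and 4.46 CPM at passage 40, a 2.4-fold fall (-1.26, SE 0.132, adjusted p = 7.48e-12). For both the difference between passages 10 and 20 was called as well, at -1.27 (SE 0.289, adjusted p = 0.000511) and -0.67 (SE 0.127, adjusted p = 3.17e-05). LRRTM1 had its highest level outside hMN at passage 20, with 15.3, 13.8 and 11.0 CPM. All 3 libraries of passage 20 lay above those of passage 30 (6.77 to 8.68 CPM) and passage 40 (6.59 to 9.26 CPM), a step that was not tested. The difference of LRRTM1 between passages 5 and 40 was not called (0.41, SE 0.217, edgeR, adjusted p = 0.117), but it was called higher at passage 40 in a fit of these 2 groups alone (0.38, adjusted p = 0.0123). LRRTM3 stayed at 3 to 17 reads per library, and its difference between passages 5 and 40 was likewise called in the fit of the 2 groups alone (-0.86, adjusted p = 0.0423) and not in that of all 48 libraries (-0.83, SE 0.44, adjusted p = 0.118).

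In motor neuron cultures LRRTM3 had the largest fold of the 9 genes. It went from 15, 14 and 12 reads in hSCNPC-P10 to 176, 214 and 204 at hMN-D6, 12.9-fold (log2 fold change 3.69, SE 0.156, edgeR, adjusted p = 8.31e-27), and on to 36.7 ± 1.62 CPM at hMN-D24. LRRTM4 rose 5.65-fold at hMN-D6, to 64.3, 63.8 and 65.0 CPM (2.50, SE 0.0593, adjusted p = 1.99e-37), peaked at hMN-D12 (80.6 ± 1.51 CPM) and was lower at hMN-D30 (61.2 ± 1.48 CPM, -0.40, SE 0.0448, adjusted p = 1.08e-10). LRRTM2 rose 4.37-fold at hMN-D6, to 23.2, 23.1 and 23.6 CPM (2.13, SE 0.0971, adjusted p = 2.95e-24). LRRTM1 alone fell at this step, from 11.4, 10.9 and 9.79 CPM in hSCNPC-P10 to 6.31, 5.83 and 7.76 CPM in hMN-D6 (-0.73, SE 0.0976, adjusted p = 3.5e-09). That fall depended on the passage taken as day 0, being -1.04 (adjusted p = 1.37e-12) against hSCNPC-P20 and 0.09 (adjusted p = 0.456) against hSCNPC-P5. LRRTM1 then rose at each tested step to hMN-D30, 2.08-fold to hMN-D12 (adjusted p = 7.13e-14) and 2.25-fold more to hMN-D30 (adjusted p = 1.29e-18), and its 31.3, 31.7 and 33.3 CPM at hMN-D42 overlapped hMN-D30 (0.06, SE 0.0665, adjusted p = 0.485).

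**Figure D4:**
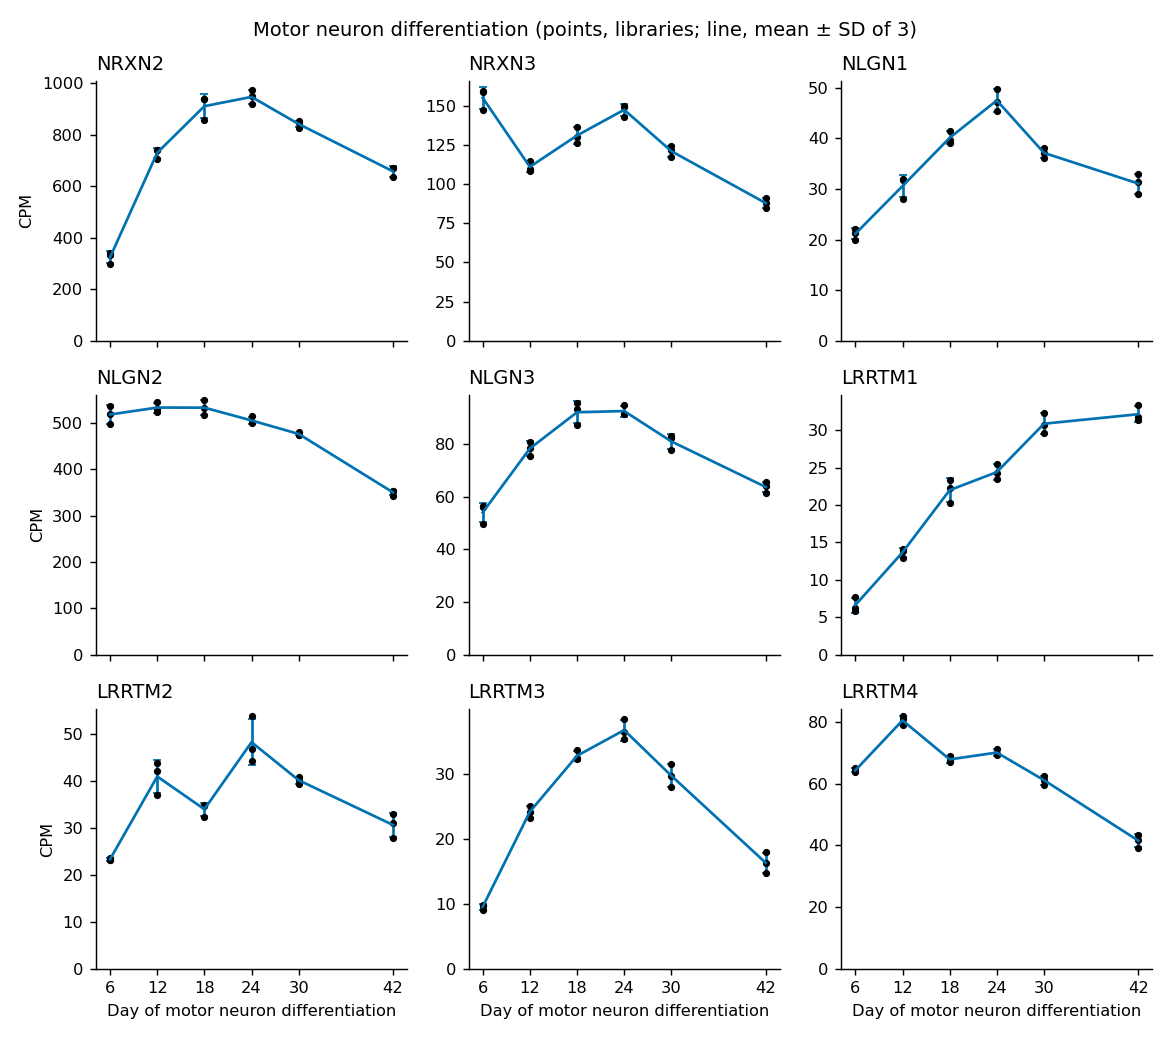
CPM of the 9 genes against day of motor neuron differentiation, on linear axes from 0. Points are libraries, and lines give the mean ± SD of 3. LRRTM1 goes from 6.63 CPM at day 6 to 32.1 CPM at day 42, while the other 8 genes are lower at day 42 than at day 30.

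The fall at hMN-D42 in 8 of the 9 genes ran from -0.25 for NLGN1 (SE 0.0573, edgeR, adjusted p = 0.000286) to -0.86 for LRRTM3 (SE 0.0688, adjusted p = 1.05e-14), which went from 31.5, 29.7 and 28.0 to 16.2, 14.8 and 17.9 CPM. Other measures moved at the same step. Of the 11 pan-neuronal genes 8 fell and 1 rose, with a median log2 fold change of -0.36, and their summed level went from 11900 to 12040 CPM at hMN-D30 to 10330 to 10490 CPM at hMN-D42. All 8 mesenchymal and neural crest genes rose (median 2.02), with summed levels of 110.5 to 359 CPM at hMN-D30, 1 library of which stood well above the others, and 829 to 947 CPM at hMN-D42. Of 9 progenitor and cycling genes 8 rose (median 1.3), of 7 astrocyte genes 5 rose and 1 fell (median 0.78), and of 6 tested oligodendrocyte lineage genes 4 rose and 1 fell (median 1.62). Summed over the astrocyte list, however, the level did not rise, with 198.0 to 218.5 CPM at hMN-D30 and 200.3 to 202.5 CPM at hMN-D42. The summed level of the oligodendrocyte lineage list was 53.5 to 68.2 CPM at hMN-D30 and 153 to 170 CPM at hMN-D42, with MOG, a defining gene of mature oligodendrocytes, at 0 in both groups. Of the 7 motor neuron genes 3 rose and 2 fell (median 0.06), while their summed level was 110.9 to 116 CPM at hMN-D30 and 102 to 105 CPM at hMN-D42, without overlap. The summed level of 6 skeletal muscle genes, 2 of them at 1 CPM or more, was 8.81 to 10.5 CPM at hMN-D42 and 8.14 to 10.1 CPM at hMN-D30. The part of other cell types in the lower level of the 8 genes was not tested.

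Levels of different genes can be compared only per length of exon, here as CPM per kilobase of merged GENCODE v44 exons. By this measure NLGN2 held 90.4% to 97.2% of the summed level of the 3 neuroligin genes in every one of the 66 libraries. In hESC it stood at 31.6 ± 1.32 CPM per kb, against 1.09 ± 0.20 for NLGN3 and 0.80 ± 0.10 for NLGN1. At hMN-D24 it stood at 88.4 ± 1.37, against 6.43 ± 0.15 and 2.65 ± 0.12. Shares by this measure depend on the merged length, which takes in the exons of all transcripts of a gene. That length was 5.72 kb for NLGN2, 14.4 kb for NLGN3 and 17.9 kb for NLGN1. In plain CPM the means at hMN-D24 were 505.5, 92.4 and 47.5 in this order. The neurexin pair changed places several times. NRXN2 held 76.3% ± 3.70 of the pair's level in hESC, 18.1% ± 2.90 in hNMP-D4, 71.5% ± 2.11 in NeuDet-D4, 7.21% ± 1.00 in hSCNPC-P40 and 69.9% ± 0.63 in hMN-D6, and from hMN-D12 on it held 87.7% to 89.3% on average. Among the LRRTM genes LRRTM4 held 66.1% to 91.6% on average from hESC to NeuDet-D6 and 52.2% ± 0.83 in hSCNPC-P5. LRRTM1 held 60.3% ± 2.04 in hSCNPC-P20, 7.10% ± 0.92 in hMN-D6 and 29.5% ± 0.84 in hMN-D42. These shares are among the genes described here and not among whole families.

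**Figure D5:**
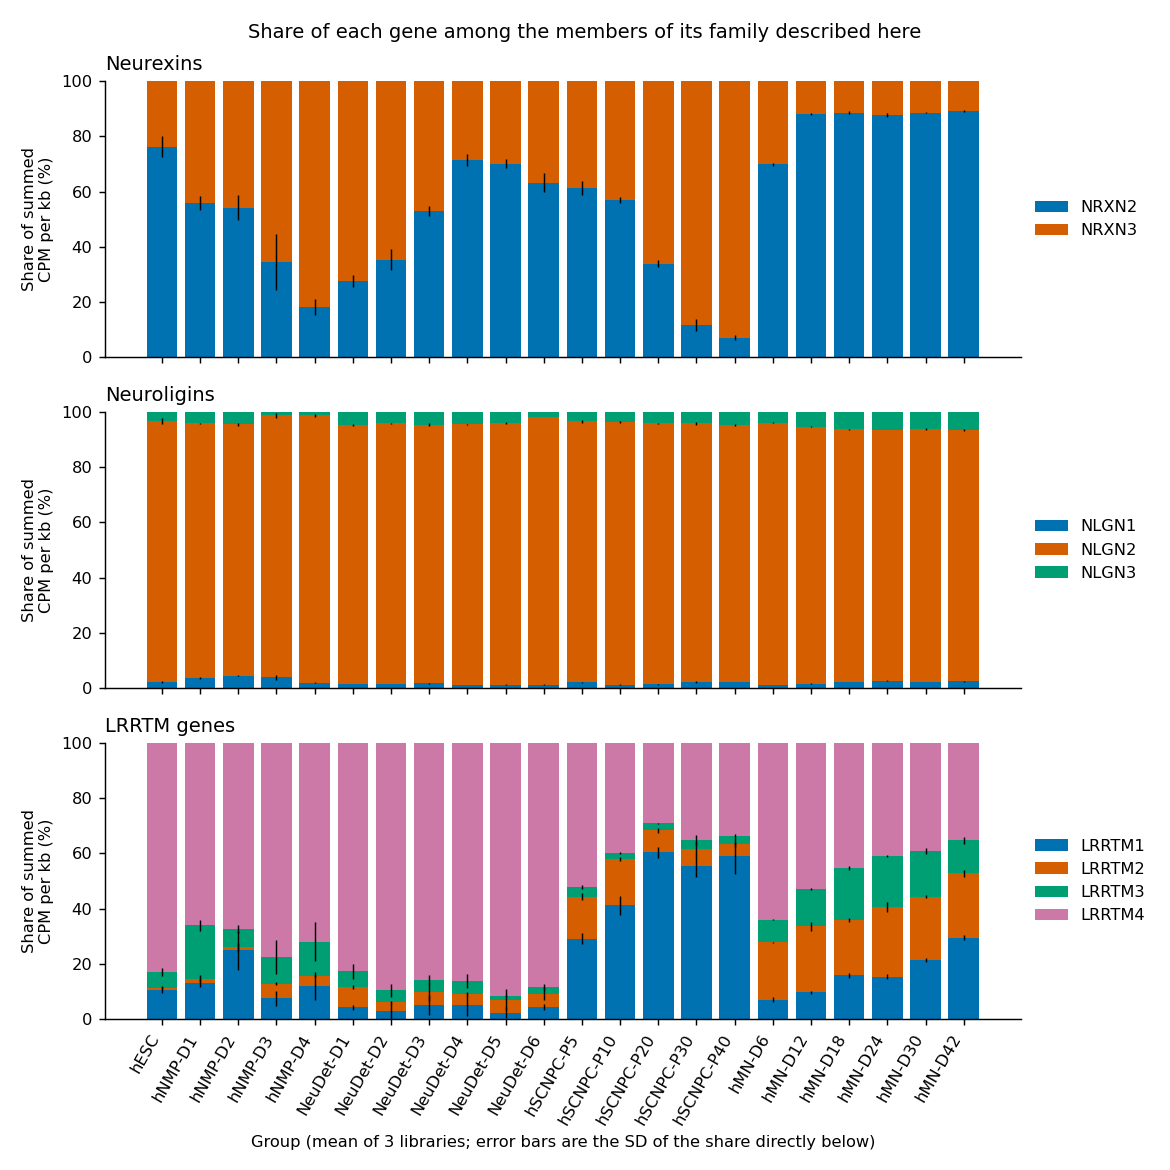
Share of each gene in the summed CPM per kilobase of its family members described here, in percent, as the mean of 3 libraries in each of 22 groups, with error bars for the SD of the share directly below. NLGN2 fills over 90% of the neuroligin bars in all groups, while NRXN2 ranges from 7.21% in hSCNPC-P40 to 89.3% in hMN-D42.

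At several steps the LRRTM genes and the genes that surround them moved apart. The strand setting of the counting is not stated, so where exons of genes on opposite strands overlap their reads cannot be told apart. LRRTM2 shares 7.3% of its exon bases with CTNNA1, LRRTM3 3.41% with other genes, and LRRTM1 0%. In the 33 libraries from hESC to NeuDet-D6 LRRTM2 had at most 17 reads while CTNNA1 had 7481 to 16144, and at hMN-D6, where LRRTM2 rose, CTNNA1 fell (log2 fold change -0.67, SE 0.0388, edgeR, adjusted p = 3.07e-21). CTNNA3 fell as LRRTM3 rose at the same step (-0.73, SE 0.26, adjusted p = 0.0106), but on few reads. It had 16 to 70 reads per library over the hSCNPC groups and 7 to 30 over the hMN groups. CTNNA2, a neuronal alpha-catenin, rose at hMN-D6 (3.11, SE 0.0555, adjusted p = 1.24e-42) while LRRTM1 inside it fell. With hSCNPC-P5 in place of hSCNPC-P10, LRRTM1 was not called at hMN-D6 (0.09, edgeR, adjusted p = 0.456). Between passages 5 and 40 CTNNA2 fell by 3.11 on the log2 scale (SE 0.152, adjusted p = 1.64e-24) while LRRTM1 was at 0.41 (not called, or called higher at 0.38 with an adjusted p of 0.0123 in the fit of the 2 groups alone). At other steps the pairs moved together, CTNNA1 rising with LRRTM2 at hSCNPC-P5 (0.71, SE 0.0548, adjusted p = 9.09e-17) and CTNNA3 falling with LRRTM3 at NeuDet-D6 (-2.42, SE 0.14, adjusted p = 7.63e-22). NRXN2 shares 2.06% of its exon bases with NRXN2-AS1, an antisense gene.

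Genes that work beside neurexins and their ligands were counted from lists. Of 24 neurexin ligands and partners, 15 rose and 5 fell at hMN-D6 against hSCNPC-P10, with a median log2 fold change of 1.76, equal to that of the 9 genes and above the 0.08 of all genes, of which 38.5% rose and 36.7% fell. CBLN2, a cerebellin that bridges neurexins to glutamate receptors of the delta type, rose from 0.98 to 36.4 CPM (5.13, edgeR, adjusted p = 1.98e-40), and NXPH2, a neurexophilin, fell from 6.52 to 0.07 CPM (adjusted p = 1.72e-21). Of 31 other synaptic adhesion genes 24 rose and 6 fell (median 0.80). SLITRK2 fell by 4.46 on the log2 scale, from 392 to 18.2 CPM (adjusted p = 3.91e-47), having been 508 CPM at hSCNPC-P5. Of 17 postsynaptic scaffold genes 12 rose and 4 fell (median 0.67), among them SHANK2 with a rise of 2.28 (adjusted p = 3.11e-36), and all 17 presynaptic vesicle and active zone genes rose (median 1.96), with UNC13A, a vesicle priming factor, at 3.54 (adjusted p = 7.49e-30). From hMN-D30 to hMN-D42 these 4 lists had 4 higher and 13 lower, 4 and 20, 2 and 10, and 0 and 11 genes in the same order, beside 21.8% higher and 19.9% lower among all genes. Between passages 5 and 40 the ligand list had 3 higher and 12 lower of 23 tested (median -1.05), beside 22.8% and 24.1% of all genes, with SPARCL1 the most changed (-5.16, adjusted p = 3.43e-31).

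By the Pearson correlation of mean log2 CPM over the 22 groups, given as a description, the gene most like NRXN2 among 19949 was PSD2 (r = 0.984), followed by SLC18A3 (0.981) and ZNF843 (0.978). NRXN3 had no partner as close, with ABCB8 (0.915), UBL3 (0.905) and COQ6 (0.90) nearest. The nearest genes were SLC8A1 (0.96) for NLGN1, LZTR1 (0.982) for NLGN2 and GNA11 (0.965) for NLGN3. For the LRRTM genes they were CAMK4 (0.968) for LRRTM1, B3GALT2 (0.991) and BSN (0.986) for LRRTM2, RTN3 (0.972) for LRRTM3 and CCSER1 (0.98) for LRRTM4. All groups share the contrast between hMN and the rest, and levels near 0 bear on the values of LRRTM1, LRRTM2 and LRRTM3.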

How the data were processed

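RNA was sequenced from 66 libraries in 22 groups of 3, grouped by the submitters' labels. Per the paper's methods, the authors mapped read pairs with HISAT2 2.1.0 (hg38) and obtained gene counts from featureCounts 1.5.3. They used GENCODE gene models, and their release and the strand setting are not given in the sources used here. The deposited values are raw counts for 60603 genes, of which 60261 have a symbol in GENCODE v44. Chromosome positions and exon lengths are from GENCODE v44. No replicate pair was identical (0 of 66, chi-squared per degree of freedom 1.89 to 25.33).

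Counts were analysed with edgeR 4.0.16 in R 4.3.3 (TMM scaling, filterByExpr, robust quasi-likelihood F test) in a fit of 48 libraries from hESC to hSCNPC-P40 (21597 genes) and in one of 18 hMN and 3 hSCNPC-P10 libraries (21175 genes). Alternatives were RLE scaling, no filter, a filter at 1 CPM, DESeq2 1.42.0, fits of the 2 groups alone, a replicate block, each library left out, and another passage as day 0. log2 CPM for likeness used a prior count of 2. The genes, the lists of other genes and the comparisons were chosen with earlier results of these data known. Named other genes are the 3 most alike per gene and, per list and comparison, up to 3 called genes with the largest change, plus the host genes. MOG was named after its values were seen.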

Additional observations from a re-analysis of the deposited data

How the results depend on the processing

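The number of the 9 genes called stayed within 1.5 times in 109 of 110 alternative settings over the 9 comparisons. The exception was hSCNPC-P20 against hSCNPC-P10, where a fit of the 2 groups alone called 5 genes in place of 3, adding NRXN3 (-0.33, adjusted p = 0.000104) and LRRTM1 (0.35, adjusted p = 0.0148). With 1 library left out in turn, the counts ran from 6 to 7 for hNMP-D4 against hESC, 6 to 8 for NeuDet-D6 against hNMP-D4 and 6 to 7 for hMN-D30 against hMN-D12, and were the same as with all libraries in the other 6 comparisons. Single log2 fold changes kept their direction and call in 954 settings, gained a call in 7, lost one in 14 and turned sign in 13. Those 13 concerned differences that were not called, except NLGN1 and LRRTM1 at hMN-D6.

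The fold changes that turned sign were these. LRRTM3 between hNMP-D4 and hESC ran from -0.07 (without hNMP-D4 replicate 2) to 0.86 with a library left out, and LRRTM2 between NeuDet-D6 and hNMP-D4 from -0.74 to 0.03 (without NeuDet-D6 replicate 2). LRRTM3 between passages 20 and 10, at 0.03 in the report, was -0.0 with no filter and with DESeq2 and -0.1 to 0.18 with a library left out. NLGN1 between passages 40 and 5 was -0.0 with the filter at 1 CPM and -0.06 (without hSCNPC-P5 replicate 1) to 0.05 with a library left out, and LRRTM2 between hMN-D30 and hMN-D12 ran from -0.11 to 0.0 (without hMN-D12 replicate 3). With hSCNPC-P5 as day 0, NLGN1 was -0.05 and LRRTM1 0.09 at hMN-D6. The cause was not tested.

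The weakest calls were LRRTM4 between NeuDet-D6 and hNMP-D4 (-0.34, adjusted p = 0.0201), which was lost with no filter (adjusted p = 0.152), with the 2 groups alone (0.127) and without hNMP-D4 replicate 1 (0.211) or any 1 NeuDet-D6 library (0.0912 to 0.0956), and NRXN3 between hMN-D30 and hMN-D12 (0.12, adjusted p = 0.0236), lost with no filter (0.0657) and without hMN-D12 replicate 1 or 2 or hMN-D30 replicate 2 or 3 (0.0819 to 0.13). NLGN1 between NeuDet-D6 and hNMP-D4 gained a call without hNMP-D4 replicate 2 (0.41, adjusted p = 0.00383), without NeuDet-D6 replicate 2 (0.34, adjusted p = 0.0144) and with the filter at 1 CPM (0.26, adjusted p = 0.0343). LRRTM1 and LRRTM3 between passages 40 and 5 gained one with the 2 groups alone.

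With the replicate number as a block, all 81 member tests kept their call, such as NRXN3 between hNMP-D4 and hESC at 3.17 and LRRTM2 at 1.80 (adjusted p = 0.0324). Same-numbered libraries showed little shared deviation (correlations -0.03 to 0.05), and all 6 libraries correlated best with their own number only for hNMP-D4 against hESC. The labels do not say how the numbers were given, so these values cannot decide whether they mark a pairing. No scaling or filter moved the share of higher calls among the genes called by more than 9.5 percentage points. With hSCNPC-P20 as day 0 the median log2 fold change of all genes at hMN-D6 was 0.10. Depth limits LRRTM1, LRRTM2 and LRRTM3 before hSCNPC-P5, where a library holds 0 to 94 reads of each.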

Other observations

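Among the 9 genes, the group means of LRRTM3 and LRRTM4 were most alike (Pearson r = 0.962 of mean log2 CPM over the 22 groups), followed by LRRTM2 and LRRTM4 (0.911) and NLGN2 and NLGN3 (0.908). NRXN3 and LRRTM1 were least alike (0.552). NRXN2 lay closer to LRRTM2 (0.887) and LRRTM4 (0.884) than to NRXN3 (0.691). These are descriptions over groups that share the contrast between hMN and the rest, and no test was made of them.

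At the step from NeuDet-D6 to hSCNPC-P5, where all 9 genes rose, 28.8% of all genes tested rose and 30.6% fell. Beside this, 22 of 31 other synaptic adhesion genes rose and 2 fell (median log2 fold change 0.81). Of 17 presynaptic vesicle and active zone genes 14 rose and 3 fell (median 1.31). SLITRK2, an adhesion gene, went from 1.86 to 508 CPM (8.12, edgeR, adjusted p = 1.13e-52). FLRT2, another adhesion gene, fell from 35.6 to 2.14 CPM (-4.04, adjusted p = 1.26e-32). Of 23 tested neurexin ligands and partners 11 rose and 8 fell, with a median of 0.27.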
